A study of Rattus norvegicus with 6 samples.

Results

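miR-21 was followed in small RNA from the livers of rats with nonalcoholic fatty liver disease (NAFLD) and of normal rats, with both arms of its hairpin, rno-miR-21-5p and rno-miR-21-3p, counted separately. A read sequence with its count is called a tag. A tag was assigned to an arm when its first 18 bases equalled those of the mature miRNA. By this rule 196 tags belonged to miR-21-5p and 25 to miR-21-3p among the 1528721 different tags of the series. The reads summed to 146340 for miR-21-5p and 97 for miR-21-3p over the 6 libraries.

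The NAFLD group held 3 livers of rats that were fasted and then fed a high-starch diet for a week, and the normal group 3 livers of rats on standard feed. All were male Wistar rats, aged 4 months by the labels, while the study's methods give an older age. The NAFLD livers were picked from those with higher triglycerides and the normal livers at random, so the NAFLD group stands for the fattier livers of its diet. Each liver gave 1 library of 11601058 to 11880695 clean reads. Liver tissue was read whole, so fewer cells that express a miRNA and less of it per cell cannot be told apart.

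A miRNA hairpin is cut by the nucleases Drosha and Dicer into a short duplex, of which one arm is loaded into Argonaute as the guide while the passenger arm is mostly degraded. The guide pairs with target mRNAs through its seed, bases 2 to 8. Its 3′ end may be trimmed or may receive bases that the hairpin does not encode, often A or U. In the liver miR-21-5p is known from hepatocytes as well as from stellate and immune cells, and it has been studied for its part in steatosis, inflammation and fibrosis through targets such as Pdcd4 and Ppara.

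The sequences below come from RefSeq on the rat build GRCr8, where the hairpin of Mir21 lies at chr10:71902600-71902691 on the minus strand and the nearest other annotated gene is Vmp1. The mature arms are shown because all counts rest on them, with the seed in capitals.
rno-miR-21-5p: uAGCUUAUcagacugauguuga
rno-miR-21-3p: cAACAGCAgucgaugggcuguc
The hairpin is shown because it decides whether a base at a read's 3′ end is encoded, with both arms in capitals.
Mir21 hairpin: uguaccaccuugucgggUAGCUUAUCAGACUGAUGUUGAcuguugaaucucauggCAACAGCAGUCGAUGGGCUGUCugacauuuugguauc
Directly after the 5p arm the hairpin encodes C and then U, so a C added to the annotated form is templated and an A, G or U is not. After the 3p arm it encodes U. No other rat miRNA of the RefSeq table shares bases 2 to 8 with either arm.

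The libraries differed in a property that bears on every count by exact match. Over 50 abundant miRNAs, the median share of reads substituted at base 4 reached 3.84% to 4.27% for NAFLD replicates 2 and 3 as well as normal replicate 2. These 3 libraries are called the set of high substitution rate. The remaining 3, NAFLD replicate 1 with normal replicates 1 and 3, had 0.0288% to 0.0639% and are called the set of low rate. Both groups thus have libraries in each set.

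miR-21-5p, the guide arm, was abundant in all livers and was not shown to differ between the groups. It was counted at 2010, 1689 and 2138 TPM (reads per 1000000 clean reads) in NAFLD replicates 1 to 3 and at 3240, 1225 and 2101 TPM in normal replicates 1 to 3. The highest and the lowest library were both normal ones, and the 3 NAFLD libraries lay between them. The mean was 1946 ± 232 TPM for NAFLD and 2189 ± 1011 TPM for normal livers (SD, n = 3 each). This gave a log2 fold change of NAFLD over normal of -0.17 (standard error 0.34) in edgeR's quasi-likelihood fit of all miRNAs. Its 95% interval ran from -0.91 to 0.57, and the adjusted p was 0.986. Of the 167 miRNAs tested, 0.599% passed an adjusted p of 0.05, which is 1 miRNA, and 4.19% had groups that did not overlap in TPM. The median log2 fold change over all of them was 0.02. The miRNA that passed was miR-122-5p, the dominant miRNA of hepatocytes, at 445100 to 465100 TPM in the NAFLD and 560700 to 595600 TPM in the normal libraries. It no longer passed with TMM factors, where the smallest adjusted p from edgeR was 0.0652, or with the reads assigned to miRNAs as library size, where it was 0.148. These reads were 75.7% to 79.2% of clean reads in NAFLD and 85.7% to 91.3% in normal livers. With them as library size the log2 fold change of miR-21-5p was 0.02 (standard error 0.33), while the median of all miRNAs moved to 0.20. The direction also turned without normal replicate 1, where the value was 0.23 (standard error 0.35), and without normal replicate 2 it was -0.46 (standard error 0.29).

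**Figure D1:**
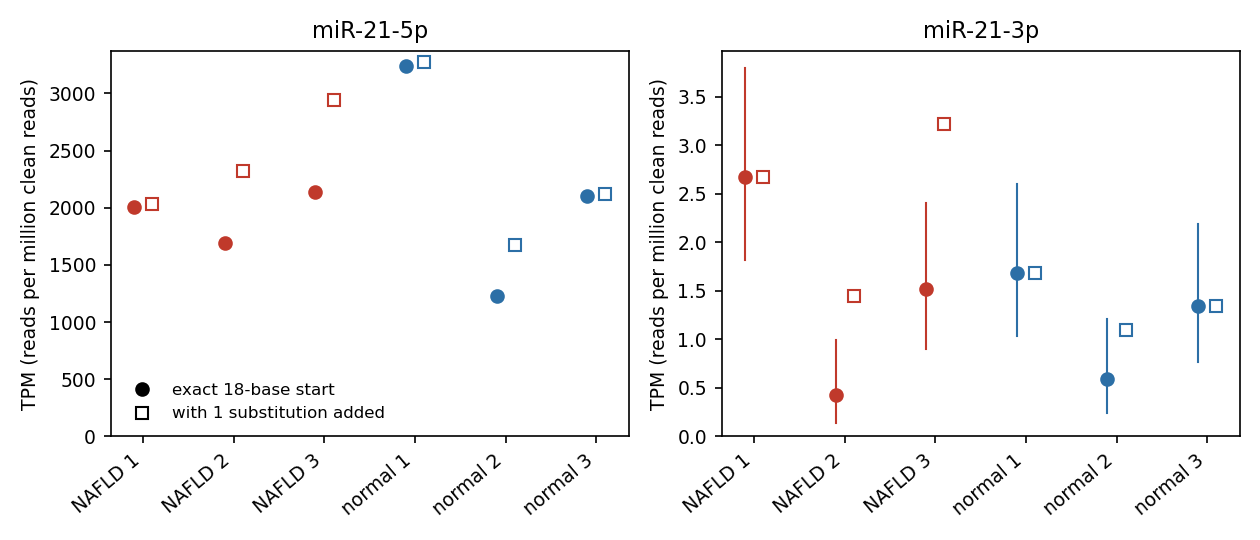
TPM of miR-21-5p (left) and miR-21-3p (right) in each library, with exact 18-base starts as filled circles and with tags 1 substitution away added as open squares; NAFLD libraries are red and normal ones blue, and the vertical lines at right are exact 95% Poisson intervals for the circles, which cover counting error only. The groups overlap for both arms, and the squares stand apart from the circles in the 3 libraries of high substitution rate.

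By mean TPM miR-21-5p ranked 10 of 365 miRNAs with reads, between miR-101b-3p at 2747 TPM and let-7e-5p at 1808 TPM. Over the libraries these neighbours ranged from 2050 to 3464 TPM and from 1391 to 2110 TPM. By exact match miR-101b-3p was above miR-21-5p in every library. With tags 1 substitution away added it was below in NAFLD replicate 3, at 2921 against 2945 TPM. The order of miR-21-5p and let-7e-5p changed between libraries. let-7e-5p was higher in NAFLD replicate 2 (2110 against 1689 TPM) and normal replicate 2 (1469 against 1225 TPM), and lower in the others. Within single libraries the rank of miR-21-5p was between 9 and 12. It took 0.250% of all reads assigned to miRNAs.

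**Figure D2:**
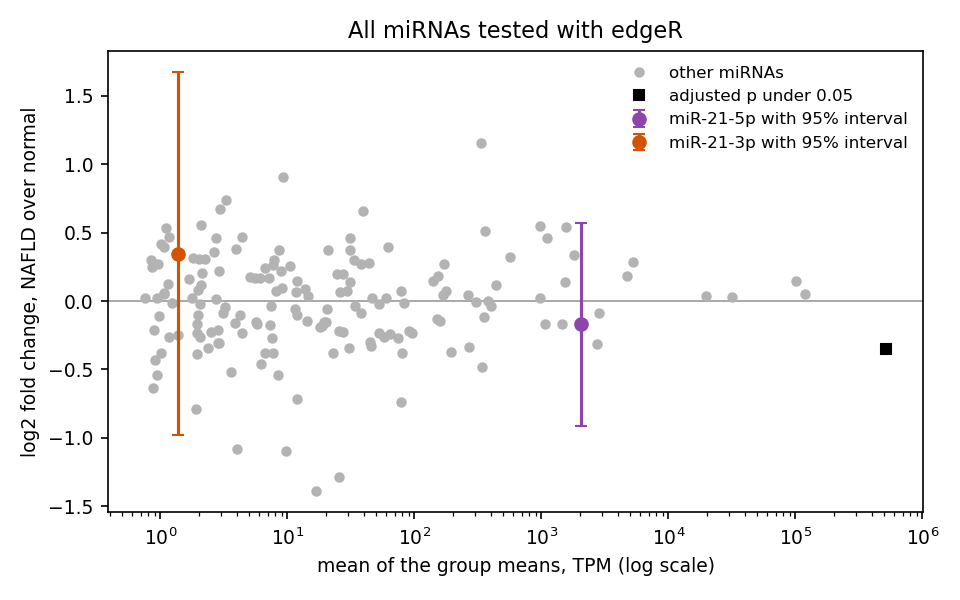
Log2 fold change of NAFLD over normal against mean TPM on a log axis for the 167 miRNAs tested, with 95% intervals for both arms of miR-21. Both intervals include 0, and the black square is miR-122-5p, the only miRNA past an adjusted p of 0.05.

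Reads of miR-21-5p with a substitution were frequent in the set of high rate and rare elsewhere. Of the reads with at most 1 substitution in the first 18 bases, 27.2%, 27.4% and 26.8% carried 1 in NAFLD replicate 2, NAFLD replicate 3 and normal replicate 2. The share was 1.22% for NAFLD replicate 1, 0.921% for normal replicate 1 and 0.842% for normal replicate 3. The groups overlapped in this share, since each had libraries of both kinds. Substitutions are written with the base of the mature sequence first, then the position counted from 1 at its 5′ end, then the base read. A16C was carried by 4222, 5845 and 3241 reads in the set of high rate, or 15.5%, 16.8% and 16.3%. In the other libraries it was carried by 0, 1 and 0 reads. C4A, inside the seed, made up 7.40%, 6.41% and 6.26% in the same libraries and at most 0.0181% in the others. Together with position 3, where 2.12% to 2.29% were substituted, these positions held most of the substituted reads. The 2 frequent substitutions were seldom in the same read. A16C was carried by 17.5%, 18.8% and 18.2% of the reads that had it or no substitution, but by 0.493%, 0.712% and 0.480% of those that had C4A.

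**Figure D3:**
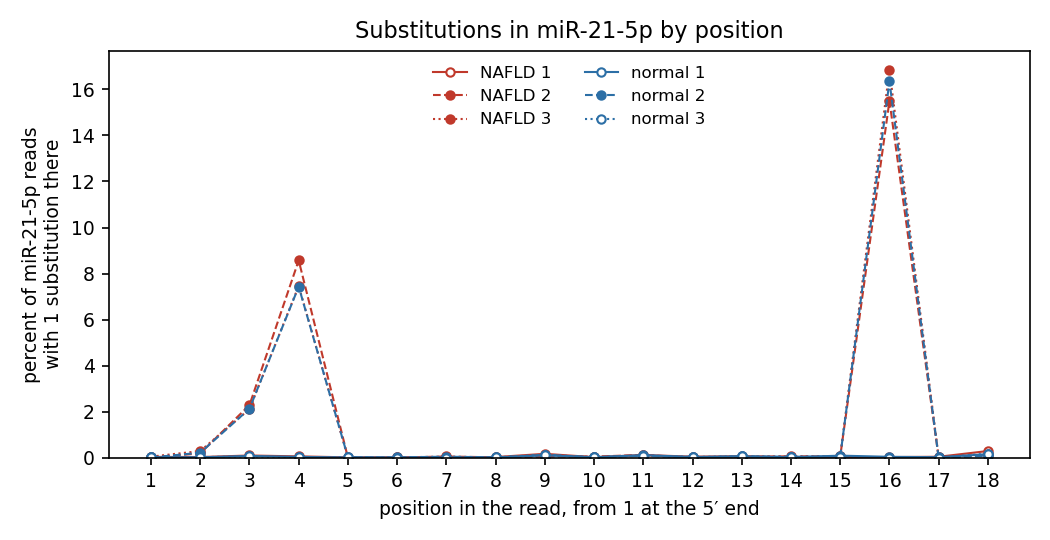
Percent of miR-21-5p reads with 1 substitution at each of the first 18 positions, for reads with at most 1 substitution, with 1 line per library, filled points for the set of high substitution rate and open points for the other libraries. Peaks stand at positions 3, 4 and 16 in the 3 libraries of high rate, reaching 15.5% to 16.8% at position 16.

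The size of this share differed among miRNAs. In the set of high rate miR-21-5p had a mean of 27.1%, rank 30 of the 50 abundant miRNAs, whose median was 31.9% and whose range was from 1.67% to 45.1%. In the set of low rate the median was 1.05%. miR-122-5p was among the little affected, with 4.03% to 4.73%, so an exact match removed a larger part of miR-21-5p than of miR-122-5p in 3 of the 6 libraries. What made the substitutions was not tested.

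With tags 1 substitution away added, miR-21-5p reached 2034, 2321 and 2945 TPM in the NAFLD and 3271, 1672 and 2119 TPM in the normal libraries. Normal replicates 1 and 2 were again the extremes, so the groups overlapped as before. The log2 fold change was then 0.05 (standard error 0.24), with a 95% interval from -0.47 to 0.57 and an adjusted p of 0.965 in edgeR. In this fit the median of all miRNAs rose as well, to 0.16. With TMM factors in addition, miR-21-5p had -0.13 (standard error 0.20). By exact match, NAFLD minus normal was -661 TPM within the set of low rate (1 NAFLD and 2 normal libraries) and 689 TPM within the set of high rate (2 NAFLD and 1 normal library). These differences have opposite signs, and each set holds too few libraries for a test. On the log2 scale they were -0.38 and 0.63, and -0.37 and 0.65 with the substituted tags, so adding them left the opposite signs in place. The spread of miR-21-5p among the normal livers thus exceeded the difference between the groups under either count.

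miR-21-3p, the passenger arm, was rare. It was read 31, 5 and 18 times in NAFLD replicates 1 to 3 and 20, 7 and 16 times in normal replicates 1 to 3. In TPM these were 2.67, 0.425 and 1.52 against 1.69, 0.590 and 1.35, and NAFLD livers held both the highest and the lowest value. Counting error alone was wide: the exact 95% Poisson interval of NAFLD replicate 2 ran from 0.138 to 0.992 TPM and that of NAFLD replicate 1 from 1.82 to 3.79 TPM. The group means were 1.54 ± 1.12 TPM and 1.21 ± 0.562 TPM (SD, n = 3 each). The log2 fold change was 0.35 (standard error 0.61), with a 95% interval from -0.98 to 1.68 and an adjusted p of 0.986 in edgeR.

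The rare arm depended more on the match than the guide arm did. With 1 substitution allowed, the 3 libraries of high rate went from 5, 18 and 7 reads to 17, 38 and 13, while the other libraries gained no read. The levels were then 2.67, 1.45 and 3.22 TPM in the NAFLD and 1.69, 1.10 and 1.35 TPM in the normal libraries. Now 2 of the 3 NAFLD libraries lay above every normal one. The log2 fold change was 0.82 (standard error 0.39), with a 95% interval from -0.02 to 1.66, an unadjusted p of 0.0539 and an adjusted p of 0.573 in edgeR. Its sign was the same within both sets, at 0.83 in the set of low rate and 0.98 in the set of high rate as differences of mean log2 TPM. These values rest on 135 reads in all, and the difference was not past the threshold.

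The 5p arm outnumbered the 3p arm by far in every liver. There were 752, 3972 and 1403 reads of miR-21-5p per read of miR-21-3p in NAFLD livers, against 1921, 2077 and 1560 in normal livers. The NAFLD libraries lay on both sides of the normal ones, and NAFLD replicate 2, with 5 reads of the 3p arm, has an exact 95% binomial interval from 1702 to 12230. On the log2 scale the ratio was 10.65 ± 1.21 and 10.84 ± 0.213 (SD, n = 3 each), a difference of -0.19 that was within the spread (two-sided exact permutation test, p = 0.7, where 3 against 3 cannot go below 0.1). Without NAFLD replicate 1 the difference was 0.36. With 1 substitution allowed the ratios were 761, 1606 and 915 against 1938, 1527 and 1573, a log2 difference of -0.69 (exact permutation p = 0.3). With starts shifted by up to 2 bases added to each arm they were 487, 711 and 817 against 875, 857 and 926, and the groups no longer overlapped (log2 difference -0.43, exact permutation p = 0.1). Counted in this way, 10.7% of 28 miRNAs had all NAFLD libraries below all normal ones. By exact match the log2 difference was -1.20 within the set of low rate and 0.19 within the set of high rate, and with only tags that lie wholly in the hairpin it was -0.81 (exact permutation p = 0.3).

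Among 29 miRNAs with both arms read at least 5 times in every library, 6.9% had arm ratios without overlap between the groups by exact match, and miR-21 was not one of them. Its ratio, a mean log2 of 10.75 or 1722 to 1, had rank 3 of the 29 by unevenness. The median over these miRNAs was 3.78 without regard to sign. Its SD over the 6 libraries was 0.786, against a median of 0.430.

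**Figure D4:**
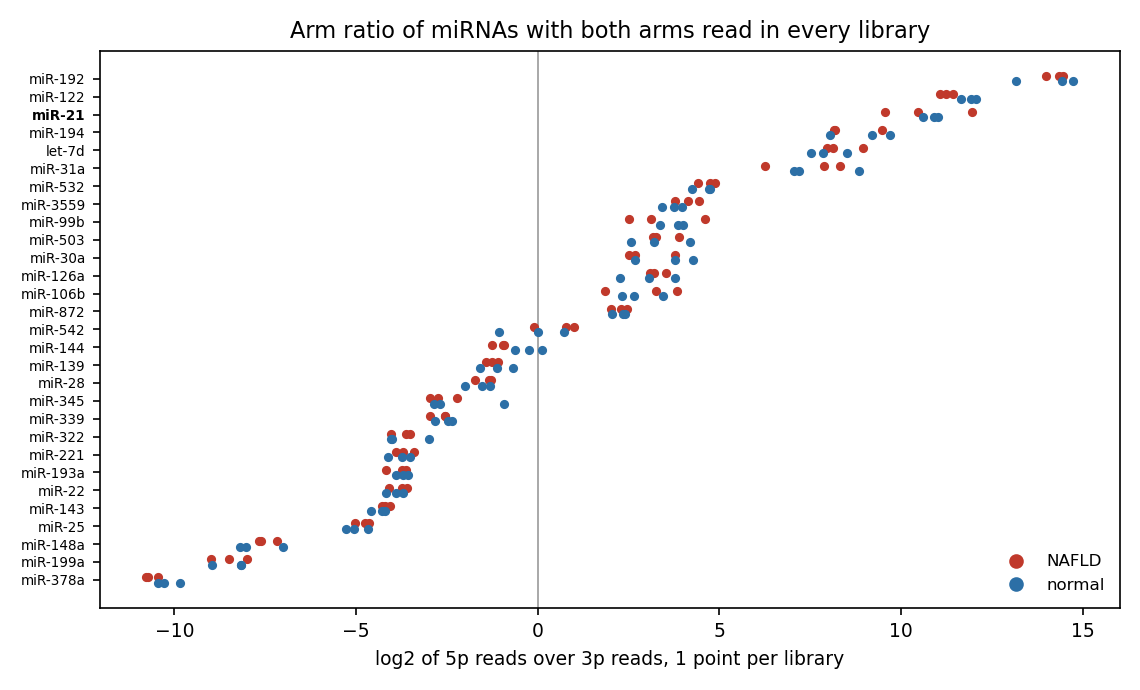
Log2 of 5p over 3p reads for the 29 miRNAs with at least 5 reads of both arms in every library, with 1 point per library and the miRNAs ordered by their mean. miR-21 has rank 3 from the top, with NAFLD libraries from 9.55 to 11.96 around the normal ones at 10.61 to 11.02.

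The arms also differed in how exactly their 5′ ends were set, which decides the seed. Of the reads that start within 2 bases of the annotated start, 99.8% of the 5p arm began at it, 0.166% began 1 base later and 0.0327% 1 base earlier. For the 3p arm 97 reads, or 49.7%, began at the annotated base, 41 began 1 base later and 57 began 2 bases later, and none began earlier. Of these shifted 3p reads, 22 and 37 lay wholly in the hairpin. The shifted starts were found in all 6 libraries, with 10 to 24 reads each, and were not counted to the arm. Only 30 reads began elsewhere on the hairpin. By start position alone, the count thus held nearly all of miR-21-5p but about as many reads of miR-21-3p as it left out.

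miR-21-5p ended at few positions. The forms that made up at least 1% of its reads in any library are shown because the comparison of 3′ ends rests on them, with bases past the annotated end in capitals.
shortened by 2: uagcuuaucagacugauguu
shortened by 1: uagcuuaucagacugauguug
annotated: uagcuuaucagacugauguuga
plus C: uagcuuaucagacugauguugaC
plus CU: uagcuuaucagacugauguugaCU
plus CA: uagcuuaucagacugauguugaCA
All but the last are encoded by the hairpin, and in the last the A is not. None of these forms passed the test between the groups in an edgeR fit of the 1694 tags of all miRNAs, of which 0.059% passed an adjusted p of 0.05. Their adjusted p were from 0.908 to 0.993.

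The annotated form made up 43.0%, 43.1% and 42.3% of miR-21-5p in NAFLD livers, against 44.1%, 45.9% and 44.0% in normal livers. All NAFLD libraries lay below all normal ones, by 1.87 percentage points in the means (exact permutation p = 0.1, the smallest p possible here, 0.3 after adjustment over the 9 forms compared). The same order was seen in 9.84% of 61 miRNAs with 200 or more reads in each library, and without normal replicate 2 the difference was -1.23 points. The form shortened by 1 base made up 34.5%, 34.5% and 33.2% in the NAFLD and 33.96%, 22.9% and 31.3% in the normal libraries. Normal replicate 2 was low and the other 5 libraries were close together, so the difference of 4.69 points rests largely on it (exact permutation p = 0.2, adjusted 0.45). Without normal replicate 2 it was 1.45 points. The templated C form mirrored this, with 13.3%, 12.0% and 13.4% against 12.9%, 18.5% and 15.1% (exact permutation p = 0.3, adjusted 0.54). Its difference of -2.58 points became -1.08 without normal replicate 2. Reads shortened by 3 or more bases were few, at 0.163%, 0.156% and 0.174% in NAFLD and 0.154%, 0.0550% and 0.0721% in normal livers. The NAFLD libraries were all above the normal ones here (exact permutation p = 0.1, adjusted 0.3), as in 25.0% of 44 miRNAs of at least 22 bases and 200 reads in each library. With 1 substitution allowed NAFLD replicate 2, at 0.158%, lay below normal replicate 1, at 0.160%, and the groups overlapped (exact permutation p = 0.2).

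**Figure D5:**
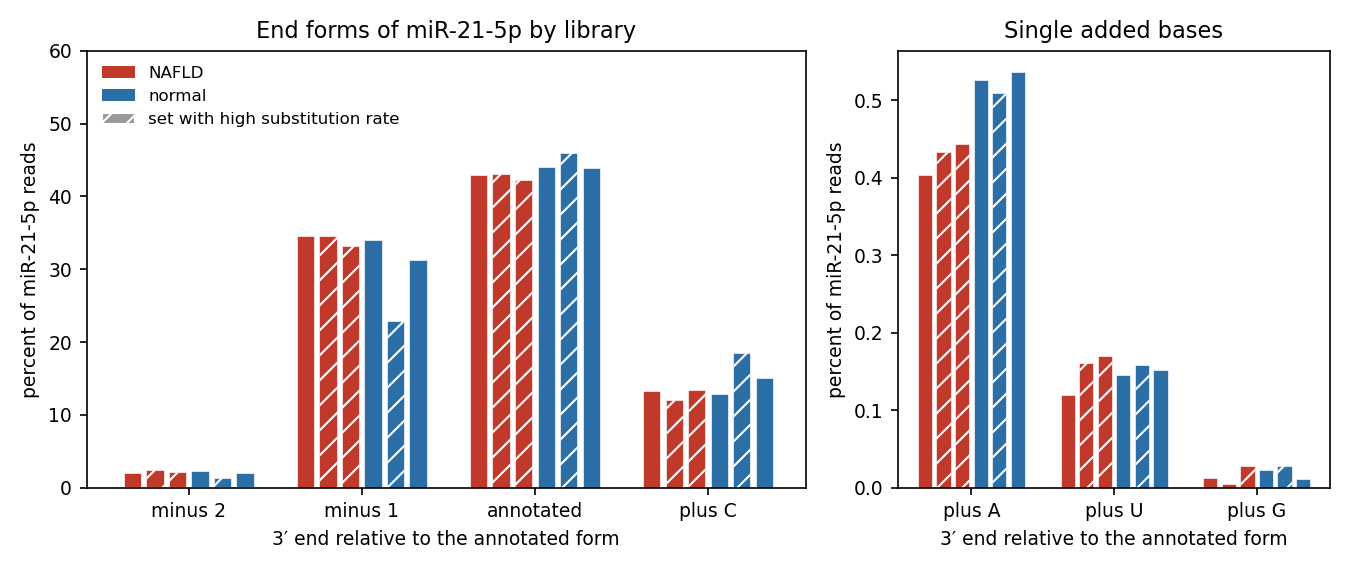
Percent of miR-21-5p reads in each 3′ end form by library, with NAFLD bars in red, normal bars in blue and hatching for the set of high substitution rate. Normal replicate 2 is low for the form shortened by 1 base (22.9%) and high for the C form (18.5%), and in the right panel the plus A bars of all NAFLD libraries are below those of all normal ones.

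The 3′ end of normal replicate 2 was further out for miR-21-5p than in any other liver. The mean end of its reads lay 0.0978 bases past the annotated end, while the other 5 libraries had means from -0.174 to -0.0815. Normal replicate 2 had the longest mean end in 36 of the 61 miRNAs with at least 200 reads in every library. Its lead over the mean of the other libraries was 0.234 bases for miR-21-5p, rank 5 of the 61, against a median of 0.0751. Between the groups the mean end differed by -0.103 bases (exact permutation p = 0.3), with overlap, and 14.8% of the 61 miRNAs had groups without overlap.

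Single bases that the hairpin does not encode were rare on the annotated form. A was added in 0.403%, 0.433% and 0.443% of the reads in NAFLD livers, against 0.526%, 0.509% and 0.537% in normal livers. All NAFLD libraries lay below all normal ones, a difference of -0.0974 percentage points (exact permutation p = 0.1, adjusted 0.3). The difference was -0.128 points in the set of low rate and -0.0709 points in the set of high rate. Since the groups did not overlap, it could only be negative in both sets, so this split adds no support. The counts were 74 to 202 reads per library, and the 95% Wilson intervals of single libraries, which cover counting error only, overlapped, for example from 0.330% to 0.493% in NAFLD replicate 1 and from 0.458% to 0.603% in normal replicate 1. Of 22 miRNAs with 1000 or more reads per library and a next hairpin base other than A, 27.3% had all NAFLD libraries below all normal ones in the same share. U was added in 0.120% to 0.170% and G in at most 0.0277% of the reads, with overlap between the groups.

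Counted at any end, a single untemplated A was carried by 2.78%, 2.56% and 2.65% of miR-21-5p reads in the NAFLD and by 3.05%, 4.31% and 3.21% in the normal libraries. The NAFLD libraries were again all below the normal ones, with a difference in the means of -0.858 percentage points (exact permutation p = 0.1). It was -0.348 points within the set of low rate and -1.70 within the set of high rate, which holds normal replicate 2. Of 26 miRNAs with at least 1000 reads in every library, 23.1% showed this order and none the opposite order. The most frequent such tag was the CA form, at 2.14%, 1.98% and 1.97% against 2.28%, 3.57% and 2.40%. An untemplated single C, by contrast, made up 0.344% to 0.461% in the set of high rate and 0.0651% to 0.148% in the set of low rate.

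miR-21-5p was among those of these miRNAs with the most wholly templated reads. Wholly templated reads made up 93.8% to 95.3% in the NAFLD and 91.9% to 95.3% in the normal libraries, and by the mean of 94.2% it ranked 2 of 26, whose median was 76.8%. The share was 94.8% to 95.3% in the set of low rate and 91.9% to 94.2% in the set of high rate. A substitution near the 3′ end also counts as untemplated here. At the annotated length, G21U reached 0.964% to 1.09% in the set of high rate and at most 0.249% elsewhere. miR-21-3p had a lower share of wholly templated reads. Of its 97 reads, 49 were wholly templated, which is 50.5% with an exact 95% binomial interval from 40.2% to 60.8%. Of the rest 8 ended in 1 untemplated base and 40 in 2 or more. In 46 of these 48 reads the untemplated bases were A and U only. These shares pool all libraries, with 5 to 31 reads each, and the intervals cover counting error only.

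The most frequent tags of the 3p arm are shown for comparison with the 5p arm, with untemplated bases in capitals.
templated U added: caacagcagucgaugggcugucu
annotated: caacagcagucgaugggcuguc
shortened by 1: caacagcagucgaugggcugu
AA tail: caacagcagucgaugggcuguAA
AU tail: caacagcagucgaugggcuguAU
They were read 24, 14, 10, 10 and 6 times in all. The most frequent one was thus 1 base longer than the annotated form. In the NAFLD libraries together 32 of 54 reads were wholly templated and in the normal ones 17 of 43. By library the shares were 51.6%, 80.0% and 66.7% against 30.0%, 57.1% and 43.8%. The groups overlapped (exact permutation p = 0.2).

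Other miRNAs were used to place miR-21 in the tissue. Of 20 miRNAs often studied in fatty liver, inflammation or fibrosis, 18 were matched and gave 17 separate starts, since miR-103-3p and miR-107-3p share theirs. Of 16 tested, 0 were higher and 1 was lower in NAFLD at an adjusted p under 0.05 from edgeR, namely miR-122-5p. It is also the only miRNA called among all 167 tested, a share of 0.599%. The 16 had a median log2 fold change of 0.03, against 0.02 for all 167.

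Markers of the cell types that a piece of liver can hold did not pass the test either where they were tested, apart from miR-122-5p. The hepatocyte markers (3 of 3 matched), miR-122-5p with miR-192-5p and miR-194-5p, summed to 474000 to 481300 TPM in NAFLD and 582700 to 621500 TPM in normal livers. The sum was almost wholly miR-122-5p, and the other 2 markers overlapped between the groups, with log2 fold changes of 0.04 for miR-192-5p and -0.04 for miR-194-5p. Mesenchymal markers (5 of 5 matched), including miR-199a-3p, miR-143-3p and miR-145-5p, summed to 532 to 665 TPM in the NAFLD and 342 to 593 TPM in the normal libraries. Immune markers (5 of 6 matched, of which 3 had enough reads to be tested), including miR-142-5p, miR-223-3p and miR-146a-5p, summed to 26.5 to 39.5 TPM against 20.2 to 42.7 TPM. Endothelial miR-126a summed to 23.5 to 48.4 TPM over both arms against 14.7 to 41.1 TPM, and the erythroid miR-451-5p and miR-144-3p to 24.0 to 67.0 TPM against 26.3 to 42.9 TPM. None of the matched markers was at 0 in any library. By exact match the sums overlapped between the groups in the mesenchymal, immune, endothelial and erythroid lists. Within the mesenchymal list miR-199a-3p did not overlap, at 400 to 439 TPM in NAFLD and 210 to 384 TPM in normal livers. Its adjusted p was 0.986 in edgeR, and 4.19% of the 167 miRNAs showed such separation. The log2 fold changes of miR-199a-3p, miR-199a-5p and miR-214-3p were 0.51, 0.40 and 0.38. Those of miR-143-3p and miR-145-5p were -0.14 and -1.29. The value of miR-145-5p rested largely on normal replicate 1, at 84.6 TPM against 6.89 to 21.8 TPM elsewhere. With 1 substitution added miR-143-3p had 0.05 and miR-145-5p -0.90. In that count miR-199a-3p was at 443 to 495 TPM against 245 to 387 TPM. miR-214-3p was at 5.10 to 6.69 TPM against 2.78 to 4.39 TPM, with an adjusted p of 0.555 in edgeR. The sums were not formed in that way. Normal replicate 1, the library with the most miR-21-5p, had the highest immune sum, at 42.7 TPM, while its mesenchymal sum of 576 TPM was below those of 3 other libraries. Most of this immune sum was miR-146a-5p, at 29.3 TPM. Other immune markers differed in order: miR-142-5p was highest in NAFLD replicate 3, at 11.8 TPM against 10.7 TPM in normal replicate 1. miR-223-3p was highest in normal replicate 3, at 3.03 TPM against 1.94 TPM. Of the untested markers, miR-142-3p was highest in normal replicate 1 (0.337 TPM) and miR-155-5p in NAFLD replicate 3 (0.677 TPM). Normal replicate 2, the library with the least miR-21-5p, had the lowest mesenchymal, immune and endothelial sums, at 342, 20.2 and 14.7 TPM. It also had the lowest level of the hepatocyte markers miR-192-5p, at 11120 TPM, and miR-194-5p, at 223.2 TPM. This library is in the set of high rate, where exact matches miss substituted reads. Its miR-126a-5p, for example, went from 12.2 to 22.1 TPM with 1 substitution added, still the lowest of the libraries. The part of other cell types in the level of miR-21 was not tested.

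Among 86 miRNAs with a mean of at least 10 TPM, the patterns most like that of miR-21-5p over the 6 libraries were, for exact matches, those of miR-128-3p, miR-27a-3p with miR-27b-3p, and miR-193a-3p, with Pearson's r of 0.948, 0.927 and 0.915 on log2(TPM + 1). miR-128-3p was at 75.5, 46.1 and 53.6 TPM in the NAFLD and 110, 26.4 and 70.7 TPM in the normal libraries, so it too was highest in normal replicate 1 and lowest in normal replicate 2. With 1 substitution allowed, among 90 miRNAs, the first place went to miR-193a-3p, with an r of 0.965. For miR-21-3p the closest of 87 were miR-1839-5p, miR-23a-3p with miR-23b-3p, and miR-191a-5p, with r of 0.973, 0.906 and 0.906. All of these values share the same libraries and their substitution rates and describe 6 libraries only.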

How the data were processed

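Small RNA of 18 nt or more was sequenced from the livers of 3 NAFLD and 3 normal rats. The authors removed low-quality reads, primer contaminants, reads without insert, poly A reads and shorter reads, and deposited the counts of every remaining tag, neither normalized nor filtered by genome match. The deposited logs gave the clean reads, to which the counts summed exactly. The submitters' notes name the genome Rnor_5.0 (rn5), which was not used here. A second deposited form of each list was identical and was not used.

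Counts were summed over tags with the first 18 bases of each of 675 mature starts in RefSeq (GRCr8), and TPM was the count per 1000000 clean reads. edgeR 4.0.16 in R 4.3.3 (filterByExpr, glmQLFit, glmQLFTest, library size equal to clean reads, Benjamini-Hochberg adjustment) compared the groups. Standard errors were taken from the log2 fold change and the F statistic of the test. Single values were compared by two-sided exact permutation tests with scipy 1.17.1. The labels do not say more of the replicates than that they are separate samples, so p-values measure the spread between these libraries. Added tags with 1 substitution had to be at least 5 times rarer than their miRNA. A tail was untemplated from its first difference with the hairpin on. DESeq2 1.42.0 and limma 3.58.1 were alternatives.

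The named forms were those with at least 1% of the 5p arm in any library, or, of the forms of the 3p arm that passed the same limit, the 5 most frequent, and the named miRNAs were those closest in pattern or rank and those of the lists. The members and lists were chosen with earlier results of these data known. Counts by exact match fall with substitutions, and a genome match was not made, so reads from other loci with the same start would be counted here.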

Additional observations from a re-analysis of the deposited data

How the results depend on the processing

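No alternative moved either arm of miR-21 past an adjusted p of 0.05. The log2 fold change of miR-21-5p changed sign with the reads assigned to miRNAs as library size (0.0166). It also did so with the substitution set as covariate (0.117) and with 1 substitution added (0.0481). In fits chosen after the data were seen, it did so with 1 substitution added and the set as covariate (0.125) or the replicate block (0.0924). The median of all miRNAs was higher in each of these fits, at 0.205, 0.236, 0.158, 0.252 and 0.176. With 1 substitution added and TMM factors, also chosen afterwards, miR-21-5p had -0.126. Leaving out 1 library gave -0.457 to 0.227 for miR-21-5p and -0.306 to 0.790 for miR-21-3p, where the value below 0 came without NAFLD replicate 1; with 1 substitution added the ranges were -0.147 to 0.361 (0.162 and 0.081 without NAFLD replicates 1 and 2) and 0.577 to 1.09. The whole mature sequence alone left too few reads of miR-21-3p to test.

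The number of miRNAs called was 1, and it was 0 with TMM factors, with miRNA reads as library size and with all 18-base starts of the table (10516 tested, median log2 fold change 1.11), where 12, 6 and 998 passed an unadjusted p of 0.05. DESeq2 and limma gave 1. Without 1 library it was 1 to 2 (2 without NAFLD replicate 1), and 0 to 3 with 1 substitution added (3 without NAFLD replicate 1, 2 without normal replicate 1, and 0 without NAFLD replicate 2, normal replicate 2 or normal replicate 3). Over miRNAs, r was -0.541 to 0.340 for same-numbered libraries and -0.522 to 0.452 for the others. The 3 same-numbered pairs cannot decide whether the numbers pair the libraries, since the substitution sets also affect these exact counts. With the replicate block miR-21-5p had -0.0655 and miR-21-3p 0.250, and the number called was 1.

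The log2 difference of the arm ratio was -0.840 to 0.360 without 1 library, 0.185 within the set of high rate, -1.20 within the set of low rate and -0.808 for tags wholly in the hairpin. For the end forms, the difference of the form shortened by 2 bases was -0.0729 points within the set of low rate, and that of the U form 0.00745 points within the set of high rate. Without 1 library the U form ranged from -0.0115 to 0.0136 points and all remaining forms together from -1.40 to 0.865. The forms annotated, shortened by 1, shortened by 3 or more, plus A, plus C and plus G kept their direction under every alternative run. For annotated, shortened by 3 or more and plus A the groups did not overlap by exact match. Leaving out 1 library or splitting by set could therefore not turn these forms. Plus G rested on 1 to 9 reads per library by exact match. At 5 to 31 reads per library, counting error limits every value of miR-21-3p.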
